A study of Homo sapiens with 12 samples.

Results

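Acetylation of histone H3 at lysine 27 (H3K27ac) was profiled by CUT&RUN in HCT116 cells, and the regions described here are the intergenic ones that lie close to a gene without touching its start. The 20000 highest-scoring peaks of each of 6 H3K27ac libraries were merged within 100 bp into 38598 regions. Of these, 7148 (18.5%) lay more than 1 kb from every protein-coding and lncRNA transcript start of GENCODE, had a midpoint outside every protein-coding gene body and lay at most 100 kb from the nearest protein-coding start. HCT116 is an established human colorectal cancer cell line. CUT&RUN sequences the short DNA fragments that an antibody-guided nuclease releases around the mark. Both replicates of each of 3 conditions were analysed, namely untreated cells, cells given 1 μM cobimetinib for 24 h and cells given TNFα at 100 ng/ml for 24 h. No transgene or genetic change separated the groups, and the study's methods call the libraries of a condition treatment replicates. Neither they nor the labels say whether these came from separate cultures, so p-values measure only the spread between these samples, which may be technical. The 6 IgG libraries that the labels also list were not analysed here.

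H3K27ac marks active promoters and active enhancers, and intergenic marked regions away from starts are the usual candidates for enhancers that act on a gene from a distance. In colorectal cancer cells the MAPK cascade ends in ERK, which raises the activity of AP1, a dimer of FOS and JUN family proteins that binds enhancers at a short palindromic word. Cobimetinib inhibits MEK, the kinase above ERK, whereas TNFα is an inflammatory cytokine that signals through NF-κB and through the kinases that feed AP1. The nearest gene is a label of position only, and these data hold no measurement of which gene a region acts on.

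Sequences of 3 regions that differed between the treatments are shown first, because AP1, of the words searched, was the one whose share differed by the most percentage points between the sets of regions described further on. Each is 200 bases of the plus strand of the reference genome (hg38), centred on the AP1 word nearest to the midpoint of the region. Capitals mark the AP1 word, taken as TGANTCA, which reads the same on both strands. The RPS23 window (chr5:82365744-82365943) and the HS3ST1 window (chr4:11497996-11498195) come from regions with higher scores under TNFα than under cobimetinib. The DLG1 window (chr3:197317357-197317556) comes from a region with the opposite difference. The first window holds 3 AP1 words and the other two hold 1 each. The word of the DLG1 window lies outside the central 500 bp of its region, where words were counted.
RPS23 region: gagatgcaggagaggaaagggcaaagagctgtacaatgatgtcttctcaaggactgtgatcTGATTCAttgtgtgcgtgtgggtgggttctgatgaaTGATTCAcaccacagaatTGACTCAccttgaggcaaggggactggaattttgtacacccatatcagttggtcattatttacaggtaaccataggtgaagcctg
HS3ST1 region: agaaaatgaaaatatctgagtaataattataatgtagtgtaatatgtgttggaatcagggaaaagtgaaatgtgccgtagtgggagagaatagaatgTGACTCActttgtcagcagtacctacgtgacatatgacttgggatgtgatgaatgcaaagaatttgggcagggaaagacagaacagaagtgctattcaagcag
DLG1 region: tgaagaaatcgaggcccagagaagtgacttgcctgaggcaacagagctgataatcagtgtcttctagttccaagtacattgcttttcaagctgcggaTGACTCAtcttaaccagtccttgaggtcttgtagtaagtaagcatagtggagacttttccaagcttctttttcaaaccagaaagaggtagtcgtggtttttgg

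A second form was an array, defined as 3 or more words TGACTCA or TGAGTCA whose starts lay 26 to 32 bp apart. The one shown here held 10 words, 29 bp apart at the median, and stood 31446 bp from the start of NID1 (array at chr1:236097120-236097387, plus strand of hg38). It carries the word TGACTCA, in capitals, and the bases between the words repeat almost unchanged from one unit to the next.
NID1 array: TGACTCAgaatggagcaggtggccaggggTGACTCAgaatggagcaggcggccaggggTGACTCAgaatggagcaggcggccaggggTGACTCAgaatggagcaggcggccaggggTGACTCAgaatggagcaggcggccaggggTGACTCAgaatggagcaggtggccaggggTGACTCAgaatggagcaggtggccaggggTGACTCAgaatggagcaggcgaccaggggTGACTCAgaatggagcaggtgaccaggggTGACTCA

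The deposited files list peaks with a score and no read counts, so sequencing depth is unknown and a region was measured by its best peak in each library. The lists held between 69813 and 124771 peaks, and the score of the last of the 20000 peaks taken ran from 44 to 70. Untreated replicate 2 stood apart from the other 5 libraries. Its 20000 highest peaks had a median width of 380 bp, against 922 to 1265.5 bp in the others, 7102 of its peaks were tied at the last score taken, and the correlation of its scores with any other library over all regions was at most 0.288. The highest correlation of each other library was between 0.831 and 0.838. Tied peaks were ranked in list order, so which of the 7102 entered the 20000 of untreated replicate 2 was arbitrary. Counts and word shares of sets compared with untreated cells are therefore given with and without it, as are some class differences. Widths, GC contents and word shares of the 7148 regions as a whole include it.

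The intergenic regions had a median width of 712 bp, with quartiles of 327 and 1269.25 bp, and a median GC content of 45.8% in their central 500 bp. This window is 500 bp around the midpoint whatever the width, so in narrower regions it takes in flanking bases. The nearest coding start was 1007 bp away for the closest region and 99997 bp for the farthest, with a median of 25599 bp. Between 20 and 50 kb lay 2428 regions (34.0%), between 50 and 100 kb 1776 (24.8%), between 10 and 20 kb 1385 (19.4%), between 5 and 10 kb 884 (12.4%) and within 5 kb 675 (9.44%). The share held by all 6 libraries varied little with distance, from 13.5% of the regions at 50 to 100 kb to 15.7% of those within 5 kb. Regions upstream of the nearest gene numbered 4839 (67.7%) and downstream ones 2309 (32.3%), a split that the rule itself shapes because it removes gene bodies. The word intergenic holds for coding genes only: the midpoint of 1557 regions (21.8%) fell in a lncRNA gene and that of 208 (2.91%) in a pseudogene. The regions often stood near each other, since 3432 (48.0%) had another within 25 kb.

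Each library held a similar part of the set, which the rule itself shapes because it takes 20000 peaks from each. Untreated replicates 1 and 2 held 3026 and 3221 of the 7148 regions, the cobimetinib replicates 3006 and 2925, and the TNFα replicates 3016 and 3100, which are 40.9% to 45.1%. A single library held 3457 regions (48.4%), and all 6 held 1014 (14.2%). Untreated replicate 2 was the single holder of 1606 regions, or 46.5% of those held once, and the other libraries held between 272 and 452 regions alone. The 5542 regions held by a library other than untreated replicate 2 do not rest on it. Of these, all 5 other libraries held 1401 (25.3%) and 1 of the 5 held 1956 (35.3%).

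**Figure D1:**
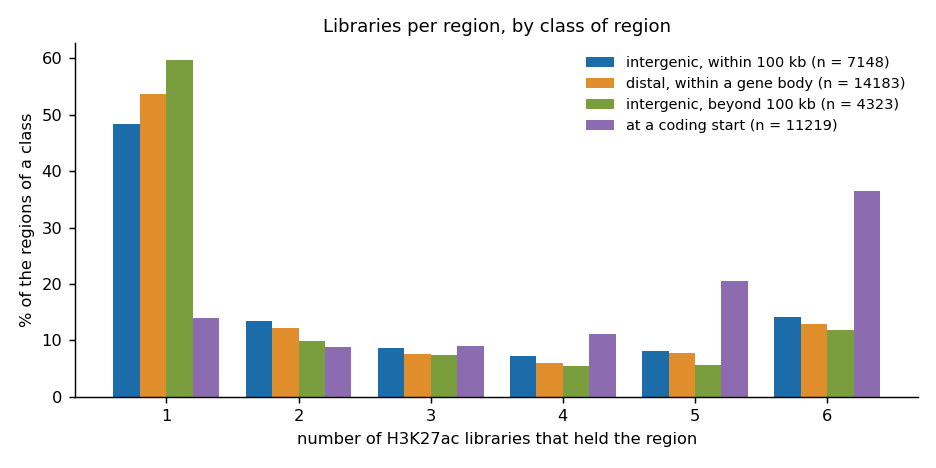
The share of regions of each class (y axis, percent) held by 1 to 6 of the H3K27ac libraries (x axis), with 1 bar colour per class and no error bars because each bar is a count. The intergenic regions within 100 kb were held by a single library in 48.4% and by all 6 in 14.2%, between the distal regions inside genes and the regions at coding starts, of which all 6 held 36.6%.

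Regions held by more libraries were also wider, which the merging itself shapes because a region spans all its peaks. AP1 words were more frequent in regions held by more than 1 library than in those held once. Median width was 322 bp among regions with 1 library, 834 bp with 2, 1236 bp with 4 and 1717.5 bp with all 6. An AP1 word stood in the 500 bp around the midpoint of 28.4% of the regions held once and 43.5% of those held by 2 libraries. Most regions held once were narrower than that window, so their shares take in flanking sequence. From 3 to 6 libraries the shares were 49.4%, 51.1%, 49.8% and 48.2%, with no further steady rise. The regions that untreated replicate 2 alone held had a median width of 241 bp, a GC content of 41.6% and an AP1 word in 17.0%. Those held once by another library had 474 bp, 46.2% and 38.2%.

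Compared with the other distal classes, the intergenic regions near genes were held somewhat more often, but no difference passed the test over the 6 libraries. The libraries held on average 42.7% of them, against 40.1% of the 14183 distal regions with a midpoint inside a coding gene and 37.1% of the 4323 intergenic regions beyond 100 kb. The differences were 2.60 ± 3.02 and 5.56 ± 9.92 percentage points (SD, n = 6 libraries), positive in 5 of 6 libraries each time, and untreated replicate 2 was the exception in both. Without it the differences were 3.77 and 9.38 percentage points. Exact two-sided permutation of the sign of the library differences gave p = 0.125 and 0.219, or 0.188 and 0.263 after Benjamini-Hochberg adjustment over 6 tests, where 6 libraries cannot give a p under 0.03125. Median ranks within the libraries differed from distal regions inside genes by -189.25 ± 177 places and median peak widths by -19.2 ± 17.5 bp, with an adjusted exact p of 0.188 for each. Against the regions beyond 100 kb the rank difference was -239.5 ± 1234 places (adjusted exact p = 0.969), which turned to 256.4 without untreated replicate 2, and the width difference 56.8 ± 50.4 bp (0.188). The 40000 highest peaks of each library in place of 20000 made a larger set of 19993 regions by the same rule. With it the share of regions held and the median rank passed against distal regions inside genes, as did rank and width against regions beyond 100 kb (adjusted exact p = 0.0469 for each). Each of these had the smallest p possible, 0.03125. Regions entered all classes through the same peak scores, so these tests describe only regions that the scores had already selected.

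The strongest intergenic regions ranked high in every library, and the 5 with the best mean rank over all 6 libraries were also the best 5 without untreated replicate 2. The best mean rank belonged to a region of 426 bp at chr1:633812-634237, 52417 bp downstream of the start of OR4F16, with ranks of 2 and 59 under TNFα, 2 and 15 under cobimetinib and 2 and 135 in untreated cells. This region lies in MTATP6P1, a pseudogene copy of a mitochondrial gene, and 62.9% of its words of 31 bases also occur in the mitochondrial chromosome, and the part of mitochondrial reads in its score was not tested. It was the only one of the 7148 regions in which over 50% of such words did so. The next was the region near NPEPPS, which encodes an aminopeptidase (chr17:47501834-47504533), with ranks of 8 and 11 under cobimetinib, 20 and 35 under TNFα and 17 and 156 in untreated cells. Next in order were the region that holds the NID1 array printed above, one near PLS3, which encodes an actin-bundling protein, and one near ANKRD33B. The ANKRD33B region had ranks of 135 and 398 under cobimetinib, 223 and 73 under TNFα and 53 and 132 in untreated cells.

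The 7148 regions shared 4477 nearest genes. Of these, 2906 genes had 1 region and 124 had 5 or more. SMURF2, which encodes a ubiquitin ligase of the TGF-β pathway, had the most, with 13 regions that stretched from 1032 to 69963 bp from its start, of which all 6 libraries held 5. ERRFI1, a feedback inhibitor of the EGF receptor, had 11 regions, and 7 of them were held by all 6 libraries. BLID also had 11, PMAIP1, which encodes the cell-death protein NOXA, and POU5F1B had 10 each, and IFNE, KLF6, LIF, TRIB1 and YWHAZ had 9 each. As background, LIF is a cytokine, KLF6 an immediate-early transcription factor and TRIB1 a pseudokinase that binds MEK.

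To ask which regions differed between the conditions, peak scores were compared on a quantile-normalised log2 scale by limma over all 38598 regions, with a value of 10 where a library listed no peak. Regions had entered the set through these same scores, by a high score in any library. The p-values and counts of this test therefore describe only regions that the scores had already selected. Only the contrast of TNFα over cobimetinib gave calls. At an adjusted p under 0.05, 6 of all regions were higher under TNFα (0.0155%) and 2 of them were intergenic regions near genes, and 0 were lower. No intergenic region was called in either contrast with untreated cells. At an unadjusted p under 0.05, 707 of the 7148 (9.89%) were higher under TNFα than under cobimetinib, where 6.92% of all regions were, and 390 (5.46%) were lower, where 4.93% of all were. For cobimetinib over untreated, 455 (6.37%, against 6.1% of all regions) were higher and 324 (4.53%, against 3.62%) lower. For TNFα over untreated, 416 (5.82%, against 4.57% of all regions) were higher and 121 (1.69%, against 1.53%) lower.

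Both called regions ranked high under TNFα, high in untreated cells and low under cobimetinib. The first lies 9546 bp upstream of AGO2, which encodes the Argonaute protein that binds small RNAs, at chr8:140645179-140646549. Its peak ranked 83 and 49 under TNFα, 1165 and 852 in untreated cells and 28257 and 32492 under cobimetinib. The difference of TNFα over cobimetinib was 3.77 ± 0.30 on the log2 score scale (SE, limma, adjusted p = 0.00452). The second lies 86444 bp upstream of RPS23, which encodes a protein of the small ribosomal subunit, at chr5:82364840-82366826, with its midpoint in the pseudogene ATP6AP1L. Its ranks were 857 and 784 under TNFα, 2524 and 2245 untreated and 27390 and 30829 under cobimetinib, a difference of 2.60 ± 0.32 (limma, adjusted p = 0.0494). Next by adjusted p among regions higher under TNFα, without passing, were the PSD3 region with a difference of 2.49 ± 0.32, the HS3ST1 region described below, and a region near NUTM2D (chr10:87382802-87383939). The last ranked 3415 and 4437 under TNFα and 17048 and 35918 in untreated cells and had no peak under cobimetinib. It shared its adjusted p with other regions and was taken for its larger difference. The ELF3 region described below, lower under TNFα, had a smaller adjusted p than the NUTM2D region (limma, 0.0699 against 0.0848). In both called regions the libraries of each condition stood close together and the 3 conditions did not overlap. Both regions entered the set through their TNFα and untreated scores, because their cobimetinib ranks lay past 20000. Their p-values do not account for this selection. The printed RPS23 window holds 3 AP1 words, and the central 500 bp of the AGO2 region hold 1.

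All contrasts share 1 estimate of the spread, and the number of calls moved with the library left out. Without untreated replicate 1 the same fit called 149 intergenic regions higher (2.08%, against 1.42% of all regions) and 101 lower (1.41%, against 1.08% of all) under TNFα than under cobimetinib. Without untreated replicate 2, or without any one of the treated libraries, it called 0 in both directions. For cobimetinib over untreated it called 741 higher (10.4%, against 10.6% of all) and 1562 lower (21.9%, against 18.9%) without untreated replicate 1, and 1 higher and 46 lower (0.644%, against 0.679%) without untreated replicate 2. For TNFα over untreated the counts were 744 higher (10.4%, against 9.81%) and 1481 lower (20.7%, against 18.0%) without untreated replicate 1, and 1 higher and 45 lower (0.630%, against 0.676%) without untreated replicate 2. With 1 untreated library left, that library is assumed to vary as the treated ones do.

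The treated libraries were therefore also compared by themselves, a fit chosen after the data had been seen. It took the 21911 regions with a peak of any score in all 4 treated libraries, 3330 of them intergenic regions near genes. The spread in this fit came mostly from a trend over all tested regions (226 prior degrees of freedom). Its SE and p-values therefore say little about how the replicates agreed at a single region. The regions of this fit had also been selected through the scores it compared, which its p-values do not account for. TNFα was higher than cobimetinib in 282 of the 3330 (8.47%), where 5.5% of all tested regions were, and lower in 139 (4.17%), where 3.46% of all were. The median difference was 0.03 over the 3330 regions, -0.04 over all tested regions, 0.07 over distal regions inside genes, 0.24 over the intergenic regions beyond 100 kb and -0.12 over regions at coding starts. The calls were spread over many genes, with 261 nearest genes for the higher and 136 for the lower regions and 3 genes with both. Regions that had no peak at all in one of these libraries, such as those near EGFR or TGFA described below, could not enter this fit.

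**Figure D2:**
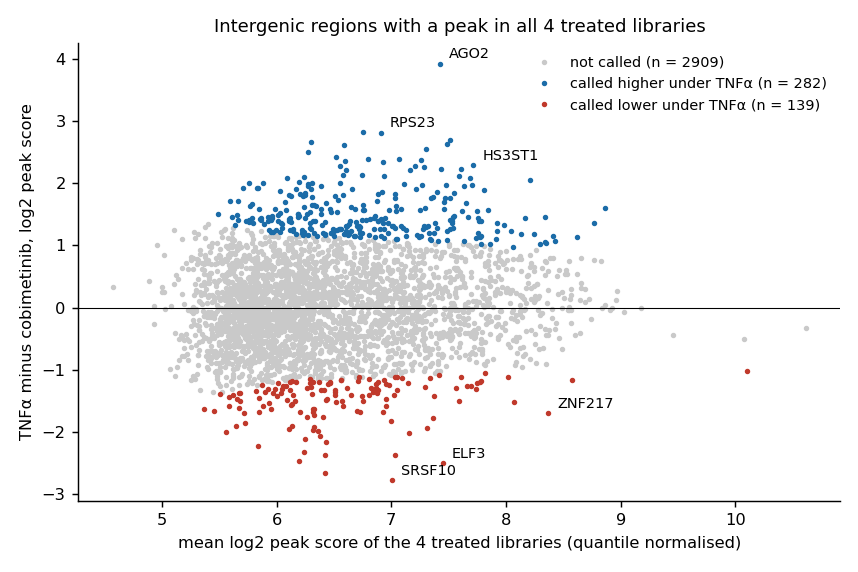
The difference of TNFα minus cobimetinib in log2 peak score (y axis) against the mean log2 score of the 4 treated libraries (x axis) for the 3330 intergenic regions with a peak in all 4, 1 point per region. The 282 regions called higher and the 139 called lower (limma, adjusted p under 0.05) lie across the range of mean scores, with the AGO2 region at 3.92 and the SRSF10 region at -2.77 as the extreme called values on each side.

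Among the 10 regions with the smallest adjusted p on the higher side, the untreated libraries stood in different places. The region 67273 bp upstream of HS3ST1, which encodes a heparan sulfate sulfotransferase (chr4:11496837-11498999), ranked 241 and 211 under TNFα, 528 and 755 untreated and 8939 and 12155 under cobimetinib, a difference of 2.29 ± 0.35 in the 4 libraries (limma, adjusted p = 2.6e-07). F2RL1 encodes the protease-activated receptor PAR2, and the region 27348 bp upstream of it (chr5:76789964-76791585) ranked 1614 and 720 under TNFα, 3967 and 801 untreated and 38695 and 31693 under cobimetinib. In these, as near AGO2, RPS23 and PSD3, the untreated libraries were much closer to TNFα than to cobimetinib. RASSF10 encodes a RAS-association domain protein, and its region (chr11:13072907-13074446) showed the other arrangement. It ranked 119 and 404 under TNFα, 9911 and 22173 under cobimetinib and 13063 and 84692 untreated, so that untreated cells stood with cobimetinib. The region near PPP4R1, a phosphatase subunit, ranked 436 and 474 under TNFα, 14659 and 20470 under cobimetinib and 7807 and 20515 untreated. The regions near MBOAT2, NUP160 and B4GALT5 completed the 10 with differences of 2.38, 2.61 and 2.66.

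The regions on the lower side ranked high under cobimetinib. The region 45894 bp from ELF3, an epithelial transcription factor of the ETS family (chr1:202056538-202058788), ranked 425 and 265 under cobimetinib, 8447 and 9664 untreated and 12905 and 16951 under TNFα, and the difference of TNFα minus cobimetinib was -2.50 ± 0.36 (limma, adjusted p = 4.8e-08). The SRSF10 region, near a splicing factor gene, ranked 585 and 818 under cobimetinib, 33551 and 20052 under TNFα and 6520 and 94171 in the untreated libraries, which disagree. ZNF217 encodes a zinc finger transcription factor, and the region 33266 bp upstream of it (chr20:53642158-53643743) was strong throughout, with ranks of 82 and 91 under cobimetinib, 527 and 740 untreated and 3854 and 2861 under TNFα. In all 3 the treated groups did not overlap, and in the ELF3 and ZNF217 regions both untreated libraries lay between them. The DLG1 region, near a gene for a cell-polarity scaffold (chr3:197316920-197318577), ranked 2236 and 2405 under cobimetinib, 11852 and 6841 untreated and 26495 and 84275 under TNFα. Regions near SPDYE3, EZR, CD7, POFUT2, RITA1 and MAX made up the rest of the 10, with differences from -2.46 to -2.01.

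**Figure D3:**
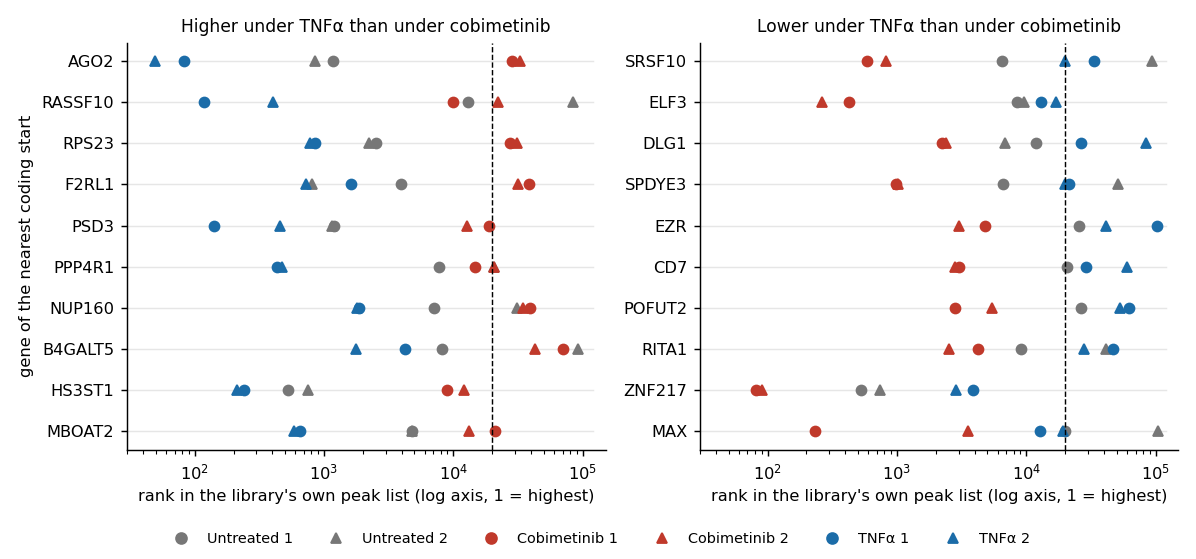
Rank of the best peak in each library's own list (x axis, log scale, 1 is the highest score) for the 10 intergenic regions with the smallest adjusted p on each side of the comparison of the 4 treated libraries (y axis, named by the nearest gene), with 1 marker per library. The dashed line stands at rank 20000, and a missing marker means that the library listed no peak there. For the AGO2 region the TNFα libraries stand at 83 and 49 and the cobimetinib libraries at 28257 and 32492.

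Presence and absence gave a second view of the same question that needs no scale. A region was counted where both libraries of one condition held it among their 20000 highest peaks and neither library of the other did. Both TNFα libraries and no cobimetinib library held 499 intergenic regions near genes (6.98%), where 5.41% of all regions were so held. Both cobimetinib libraries and no TNFα library held 363 (5.08%), against 4.39% of all regions. As a part of the regions that both libraries of the first condition held, the counts were 21.7% of 2299 for TNFα and 17.2% of 2111 for cobimetinib. The same parts were 21.9% and 18.4% among distal regions inside genes, 24.9% and 13.5% among intergenic regions beyond 100 kb, and 4.28% and 5.52% at coding starts. The difference between the distal classes was not tested. With 40000 peaks the 2 counts were 696 for TNFα and 707 for cobimetinib, in the other order, in the larger set of 19993 regions.

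Against untreated cells, both cobimetinib libraries and no untreated library held 320 intergenic regions (4.48%, against 3.92% of all regions), and both untreated libraries and no cobimetinib library held 139 (1.94%, against 1.6% of all). Both TNFα libraries and no untreated library held 320 (4.48%, against 3.56% of all), and both untreated and no TNFα library held 81 (1.13%, against 1% of all). These shares stood near those of all regions. With 1 untreated library in place of both, every count grows by construction. Without untreated replicate 2 the counts were 365 for cobimetinib and not untreated (5.11%, against 4.72% of all regions), 708 for the reverse (9.90%, against 8.33%), 380 for TNFα and not untreated (5.32%, against 4.4%) and 596 for the reverse (8.34%, against 7.26%). Without untreated replicate 1 they were 953, 1820, 1020 and 1749 (13.3%, 25.5%, 14.3% and 24.5%, against 15.97%, 22.1%, 15.9% and 21.5% of all regions). The comparisons of both treatments with untreated cells share the untreated libraries and are not independent of each other.

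**Figure D4:**
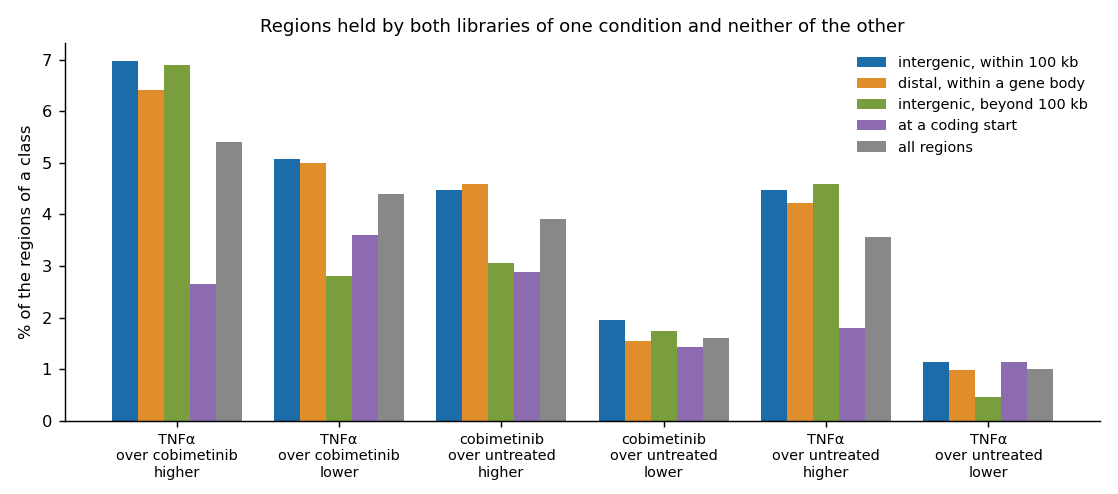
The share of regions of each class (y axis, percent) that both libraries of one condition and neither of the other held, for the 6 comparisons (x axis), with 1 bar colour per class and no error bars because each bar is a count. The intergenic regions within 100 kb stood at 6.98% for TNFα and not cobimetinib, against 5.41% of all regions, and at 1.13% for untreated and not TNFα, against 1% of all.

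The leading regions of these sets were as follows. Near NEPRO a region (chr3:113097676-113098954) ranked 3999 and 1541 under cobimetinib, 21271 in untreated replicate 1 and 23200 in TNFα replicate 1, and the other 2 libraries listed no peak. A region 77250 bp from MLLT10, a chromatin factor gene (chr10:21750828-21752302), ranked 1808 and 3820 under cobimetinib, 24206 and 41243 untreated and 10849 and 11011 under TNFα. Cobimetinib thus had the best ranks in both, and in the MLLT10 region TNFα stood between cobimetinib and untreated. Among regions held under TNFα and not in untreated cells, one near AGPAT4, which encodes an acyltransferase (chr6:161127969-161129251), ranked 1105 and 3012 under TNFα and 22909 in cobimetinib replicate 2 and had no peak in the other 3 libraries. One near OR8S1 (chr12:48539945-48540805) ranked 1445 and 1599 under TNFα, 24439 and 28145 under cobimetinib and 21401 in untreated replicate 1 alone. Among regions held in untreated and not in TNFα cells, one near GRAMD4 (chr22:46561256-46562166) ranked 6265 and 19731 under cobimetinib, 20144 and 21524 under TNFα and 7540 and 1941 in untreated cells, so its TNFα peaks lay just past the limit of 20000. Regions near CD7 (more held under cobimetinib), RSPH3 (under TNFα), and ADRA2C and GRAP (in untreated cells) completed these sets, and the AGO2, F2RL1 and RPS23 regions led those held in untreated cells and not under cobimetinib.

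AP1 words were spread unevenly over these sets. An AP1 word stood in the central 500 bp of 2747 of the 7148 intergenic regions (38.4%), against 29.5% of all regions, 38.2% of distal regions inside genes and 10.2% of regions at coding starts. The 7148 include the 1606 regions that untreated replicate 2 alone held, of which 17.0% had a word, so they lower this share. Among the 499 regions held under TNFα and not cobimetinib, 318 (63.7%) had one, against 111 of the 363 (30.6%) held under cobimetinib and not TNFα. Regions held in untreated cells and not under cobimetinib had one in 88 of 139 (63.3%) and those held under cobimetinib and not untreated in 104 of 320 (32.5%). For TNFα and untreated cells the shares were 56.6% of the 320 held under TNFα only and 38.3% of the 81 held in untreated cells only. Without untreated replicate 2, a comparison added after the data had been seen, the 4 shares were 53.1% of 708 and 33.2% of 365 for untreated cells and cobimetinib, and 57.1% of 380 and 37.8% of 596 for TNFα and untreated cells. Without untreated replicate 1 the shares of the sets held in untreated cells were lower than those of the treated sets, 22.4% against 39.1% and 18.6% against 54.3%, so the order of the untreated and cobimetinib sets depended on which untreated library was used. In the 4 treated libraries, 61.3% of the 282 regions called higher under TNFα, 37.4% of the 139 called lower and 45.8% of the 2909 not called held a word. The stricter words TGACTCA and TGAGTCA alone stood in the same order, in 51.1% of the TNFα set, 26.7% of the cobimetinib set and 31.2% of the intergenic regions.

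**Figure D5:**
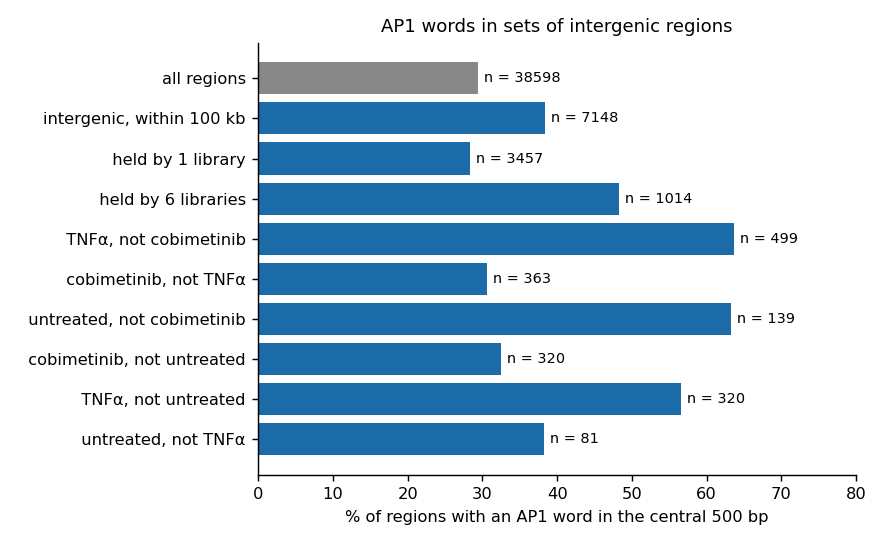
The share of regions with an AP1 word (TGANTCA) in their central 500 bp (x axis, percent) for all regions and for sets of the intergenic regions within 100 kb (y axis), with the number of regions in each set beside its bar and no error bars because each bar is a count. The sets held under TNFα or in untreated cells and not under cobimetinib stand at 63.7% and 63.3%, and the sets held under cobimetinib and not under TNFα or not in untreated cells at 30.6% and 32.5%.

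Of the TNFα and cobimetinib sets, the one with more AP1 words had the lower GC content, and both sets were wider than the intergenic regions as a whole. Not all sets followed that order. With untreated replicate 2 as the only untreated library, the set held in untreated cells and not under cobimetinib had a lower median GC content than the reverse (41.8% against 49%) and fewer AP1 words (22.4% against 39.1%). The TNFα set of 499 had a median GC content of 44.8% and a median width of 1102 bp, the cobimetinib set of 363 had 49.2% and 982 bp, and all intergenic regions had 45.8% and 712 bp. Among the last, the regions that untreated replicate 2 alone held had 41.6% and 241 bp. The part of GC content or width in the AP1 shares was not tested. Other words differed by fewer percentage points between the TNFα and cobimetinib sets. The TEAD word ACATTCC, bound by the partners of YAP, stood in 13.6% and 12.4% and in 10.5% of all intergenic regions, and the KLF word GGGTGTGG in 9.42% and 7.99%, against 6.86%. A decamer of the NF-κB type stood in 11.2% and 11.3%, against 7.55% of all intergenic regions and 8.54% of all regions. Its share was 14.1% in the 320 regions held under TNFα and not untreated and 7.41% in the 81 with the reverse, or 12.4% and 7.38% without untreated replicate 2. The GATA word AGATAA stood in 24.0% and 21.8%, the FOX word TGTTTAC in 8.22% and 7.99% and the TCF word CTTTGATC in 1.80% and 1.93%. The HNF4 word CAAAGTCCA was in 0.401% and 0.551%. The remaining words searched, CRE (TGACGTCA) and ETS (ACCGGAAG), stood in 0.713% and 0.741% of the intergenic regions. CRE was in 2 of the 499 regions of the TNFα set and 4 of the 363 of the cobimetinib set, and ETS in 4 and 4. All words were searched on both strands, and a match is a match of letters, not a bound site.

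Arrays of AP1 words were rare. Of the 38598 regions 34 held an array, 13 of them intergenic regions near genes (0.182%, against 0.0881% of all regions), with 20 arrays in the 13 regions because the region near DBNDD1 (chr16:89994269-89996623) held 7. All 6 libraries held 7 of the 13. The region with the NID1 array (chr1:236096555-236097717) ranked 4 and 12 under cobimetinib, 15 and 123 under TNFα and 8 and 89 in untreated cells, which places it among the strongest peaks of every library. Of the 10 with a peak in all treated libraries it was the only one called, lower under TNFα by -1.03 ± 0.22 (limma, adjusted p = 4.4e-04), and 0 were called higher. The median difference of the 10 had the other sign, 0.23, against -0.04 over all tested regions. At the other end, the region near FGF2, a growth factor gene (chr4:122786051-122786834), had a peak in 3 libraries only, ranked 41940 in untreated replicate 1 and 14487 and 32862 under TNFα.

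Lists of genes of known role were then read through their nearest regions. The lists were written with earlier results of these data known, so their counts describe the regions and support no direction. For genes of the EGF receptor family and its ligands, 7 of 9 genes had 20 regions, of which 6 were held under TNFα and not cobimetinib and 1 the reverse (5.41% and 4.39% of all regions were). In the 4 treated libraries, 3 of 13 tested were called higher and 0 lower, with a median difference of 0.22. Of all tested regions 5.5% were called higher and 3.46% lower. The 3 calls were near the ligand genes AREG (2 regions) and EREG. The AREG region at chr4:74416663-74419053 ranked 1281 and 81 under TNFα, 497 and 916 untreated and 9217 and 8725 under cobimetinib, a difference of 1.96 ± 0.36 (limma, adjusted p = 1.6e-05). A region 22265 bp upstream of EGFR (chr7:54995640-54996752) ranked 15294 and 17443 under TNFα and 15362 and 10770 untreated, and under cobimetinib it ranked 97876 in replicate 1 and had no peak in replicate 2. The TGFA region (chr2:70387604-70388891) ranked 5906 and 8315 under TNFα and 83659 in cobimetinib replicate 1, with no peak in replicate 2.

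Genes of the MAPK response came next, among them feedback inhibitors such as the DUSP phosphatases and SPRY4, and other genes of the response such as CCND1, EPHA2 and PHLDA1. Of 19 genes 11 had 45 regions, 4 held under TNFα and not cobimetinib and 2 the reverse, where 5.41% and 4.39% of all regions were. Of 25 regions tested in the 4 treated libraries 5 were called higher and 1 lower (median difference 0.19). Of all tested regions 5.5% were called higher and 3.46% lower. DUSP5, an ERK phosphatase, had one of each: the region 31056 bp downstream ranked 2578 and 519 under TNFα and 8722 and 6418 under cobimetinib, and the region 82654 bp upstream ranked 24903 and 47612 under TNFα and 9284 and 7548 under cobimetinib. The other 4 called higher were near PHLDA1, SPRY4, EPHA2 and IER3, with differences from 1.13 to 1.72. For the AP1 genes, 7 of 10 had 11 regions, and 2 of 8 tested were called higher and 0 lower. The FOSL1 region, 1795 bp upstream of the start (chr11:65902368-65904451), ranked 2949 and 1859 under TNFα, 2273 and 7593 untreated and 15988 and 8653 under cobimetinib, a difference of 1.31 ± 0.38 (limma, adjusted p = 0.0128). The other was a JUN region 98753 bp upstream, with a difference of 1.34 ± 0.43.

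Of 24 genes of the NF-κB pathway, subunits and targets among them, 12 had 29 regions. By presence 7 were held under TNFα and not cobimetinib and 1 the reverse, where 5.41% and 4.39% of all regions were. In the 4 treated libraries 3 of 11 tested were called higher and 0 lower (median difference 0.81). Of all tested regions 5.5% were called higher and 3.46% lower. The chemokine gene CCL20 had a region 3610 bp downstream of its start (chr2:227817452-227818995) that ranked 2781 and 2789 under TNFα, 8200 and 3465 untreated and 24677 and 33031 under cobimetinib, a difference of 2.13 ± 0.39 (limma, adjusted p = 2.0e-05). The CXCL2 region (chr4:74108508-74110910) ranked 407 and 790 under TNFα, 1807 and 4591 untreated and 4357 and 7921 under cobimetinib. TNFAIP3, which encodes the NF-κB inhibitor A20, had 3 regions held under TNFα and not cobimetinib, and the one at chr6:137894197-137895725 was listed in the TNFα libraries alone, at ranks 14918 and 12849. The region of TNFAIP3 that was called (chr6:137810862-137812187) ranked 5771 and 5202 under TNFα, 14261 and 58011 under cobimetinib and 45554 and 93232 untreated. The only region of the list held under cobimetinib and not TNFα was near RELA, which encodes the p65 subunit.

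The intestinal epithelium list served to check the identity of the cells. Of 29 genes 17 had 46 regions, 1 held under TNFα and not cobimetinib and 4 the reverse, and of 26 tested 0 were called higher and 6 lower, where 5.5% and 3.46% of all tested regions were (median difference -0.10, against -0.04 over all tested regions). The 6 were near ELF3, KLF5 and SOX9, all transcription factors of epithelial cells, CDH1, which encodes E-cadherin, and KRT8 with 2 regions. The CDH1 region, 4369 bp upstream (chr16:68731928-68732923), ranked 5650 and 6242 under cobimetinib, 25411 and 8731 untreated and 19420 and 28174 under TNFα, a difference of -1.33 ± 0.40 (limma, adjusted p = 0.0163). The SOX9 region (chr17:72151110-72152597) ranked 1228 and 3972 under cobimetinib, 10202 and 73802 untreated and 26967 and 8432 under TNFα. The one region with the reverse presence pattern was near EPCAM. Over all regions 5.41% were held under TNFα and not cobimetinib and 4.39% the reverse. For 23 marker genes of other lineages, 5 genes had 7 regions, 6 of them held by a single library and 0 by all 6. Of the 46 regions of the intestinal list a single library held 18 and all 6 held 9 (19.6%). Over the 7148 regions a single library held 48.4% and all 6 held 14.2%. With 7 regions on one side and nearest genes as labels of position only, these counts say little about the identity of the cells.

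The remaining lists were smaller. Over all regions 5.41% were held under TNFα and not cobimetinib and 4.39% the reverse. Of all regions tested in the 4 treated libraries 5.5% were called higher and 3.46% lower. Of the invasion genes, 9 of 13 had 22 regions, 2 held under TNFα and not cobimetinib and 2 the reverse, and 3 of 17 tested were called higher and 0 lower. Of these calls 2 were near ITGA3, an integrin gene, with differences of 1.15 and 1.20. Of the YAP and TEAD genes, 6 of 14 had 17 regions, 1 and 2 by presence, and 3 of 11 tested were called higher and 0 lower, near AMOTL2 (2 regions) and F3. Of the Wnt genes, 7 of 13 had 14 regions, 2 and 1 by presence, and 0 of 5 tested were called. The AXIN2 region (chr17:65515275-65516784), near a Wnt feedback gene, ranked 3686 and 3258 under cobimetinib, 39137 in untreated replicate 2 and had no peak in the other 3 libraries.

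Among the genes with the most regions, KLF6 had the most calls in the 4 treated libraries, with 3 of 8 tested called higher and 0 lower (median difference 0.86). Of all tested regions 5.5% were called higher and 3.46% lower. KLF2, of the same family of zinc finger transcription factors, was the only other gene with 3, of 4 tested, and it was picked after its values were seen. The KLF6 region at chr10:3804446-3806565 ranked 992 and 1774 under TNFα, 7187 and 11415 under cobimetinib and 6373 and 14641 untreated. Its neighbour at chr10:3851277-3853310 was strong and alike in every library, with ranks of 1814 and 995, 1102 and 502, and 443 and 500 in untreated, cobimetinib and TNFα cells. It was not called, with a difference of 0.21 ± 0.31, and the 2 regions were not tested against each other. Of the 9 tested regions of SMURF2 2 were called higher, and the one at chr17:64706129-64707981 ranked 583 and 1414 under TNFα, 23908 and 17061 under cobimetinib and 3953 and 9866 untreated. Of the 11 regions of ERRFI1, all of them tested, 1 was called higher (chr1:8089065-8091192), with ranks of 1216 and 535 under TNFα against 6394 and 14672 under cobimetinib, and the median difference of the 11 was -0.39.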

How the data were processed

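Per the study's methods and the submitters' processing notes, the authors aligned reads to hg38 with BWA 0.7.15, kept uniquely mapping reads and called peaks with MACS2 2.1.1 in each library at a relaxed threshold and with no background library. Peaks of a paired-end and a single-end run were joined and the higher score kept. The deposited score is a whole number, at least 20 in every list. The lists give no read counts, so depth and counting error are unknown. By its peak names, the list of untreated replicate 2 comes from joined sequencing runs.

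Starts and gene bodies came from GENCODE release 44 on hg38, whose chromosome names and lengths fit the peaks. The best score in each region and library was taken (10 where no peak was listed), put on a log2 scale and quantile normalised. Conditions were compared by limma 3.58.1 (R 4.3.3) over all regions with Benjamini-Hochberg adjustment, a step tested on simulated data. The simulated libraries all had the same spread, so that test does not cover a library that stands apart, as untreated replicate 2 does. Classes of regions were compared over the 6 libraries by an exact two-sided permutation test (scipy 1.17.1). Other numbers of peaks, scalings and values for absent peaks, a filter, weights, the replicate block and leaving out each library were tried.

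The set and the gene lists were chosen with earlier results of these data known. Named regions are, for each contrast and direction, the 5 with the smallest adjusted p, or where none passed the 3 with the best mean rank by presence. The 5 with the best mean rank over all libraries, called regions of listed genes, the 10 genes with the most regions and 1 array were also named, and some items that this rule chose are not reported here. As the score test called no region of a listed gene, those named were picked by presence or in the 4 treated libraries after their values were seen. The 10 regions on each side of that fit, the other arrays, the HS3ST1 and DLG1 windows, the stricter AP1 words and KLF2 were also added then.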

Additional observations from a re-analysis of the deposited data

How the results depend on the processing

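Of 120 alternative counts 52 stayed within 1.5 times the reported count and 68 did not. Most of the 52 were score-test counts of 0 that stayed at 0. Of 48 alternative differences between classes 41 kept their direction and side of the threshold, 4 newly passed it and 3 changed sign. Higher and lower under TNFα than under cobimetinib (2 and 0 as reported), the counts were 152 and 35 with normal scores of ranks (556 and 158 over all regions), 174 and 30 with median centring (616 and 123), 70 and 9 with the lowest score where no peak was listed (254 and 49), 4 and 1 with a peak required in 3 libraries (10 and 2), 654 and 403 with array weights (2540 and 1822) and 282 and 139 in the 4 treated libraries alone, which was chosen after the data were seen. With the replicate block they were 112 and 21 (422 and 108 over all regions), although same-numbered libraries did not deviate together (correlations of 0.0233, 0.0570 and 0.0230), so the numbers do not pair the samples. For cobimetinib over untreated (0 and 0), normal scores gave 35 and 36 (142 and 112 over all), median centring 20 and 16 (74 and 36), the lowest score 1 lower (3) and the replicate block 25 and 41 (139 and 125). For TNFα over untreated (0 and 0), the higher counts were 23, 27 and, with the replicate block, 14 (95, 128 and 56 over all). Leaving out 1 library gave 0 to 149 higher and 0 to 101 lower for TNFα over cobimetinib, 0 to 741 and 0 to 1562 for cobimetinib over untreated, and 0 to 744 and 0 to 1481 for TNFα over untreated, each highest value without untreated replicate 1. The set itself held 2948 regions with 10000 peaks and 19993 with 40000. By presence, 10000 peaks gave 292 and 187 for TNFα against cobimetinib, 167 for cobimetinib and not untreated and 192 for TNFα and not untreated. With 40000 peaks, 696 were held under TNFα and not cobimetinib and 707 the reverse, 525 under cobimetinib and not untreated and 151 in untreated and not TNFα. With 50% of a region covered, 61 were held in untreated and not cobimetinib and 30 in untreated and not TNFα. Leaving out 1 library gave 652 to 1009 and 504 to 923 for TNFα against cobimetinib, 365 to 953 and 215 to 1820 for cobimetinib against untreated, and 380 to 1020 and 132 to 1749 for TNFα against untreated, all larger because 1 library then stands for its condition. Against distal regions inside genes, 40000 peaks gave differences of 4.72 percentage points in the share held, -2869 places in rank and 57.8 bp in width, the last reversed. Against regions beyond 100 kb they gave -2627 places and 112 bp, and the rank difference reversed to 100.2 with 10000 peaks. Leaving out 1 library gave 1.99 to 3.77 and 3.95 to 9.38 percentage points, -238.1 to -132.7 and -403.9 to 256.4 places (the last without untreated replicate 2, a reversal) and -23.7 to -15.2 and 48.2 to 75.2 bp. The causes were not tested. Depth is unknown, so a missing peak does not show that the mark is absent.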
